A study of Mus musculus with 8 samples.

Results

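The DNA replication machinery was followed through 50 genes, taken by symbol from the deposited table by way of their Entrez identifiers, and all 50 were among the 11723 genes listed there. They covered origin recognition, loading and firing of the replicative helicase, the polymerases, the sliding clamp and its loader, Okazaki fragment processing, fork protection and the re-assembly of chromatin and DNA methylation. Expression was measured by RNA sequencing of CD8 T cells of peripheral lymph nodes, purified by flow cytometry. The mice were BALB/c and 12 days old. For the 4 WT libraries, cells of 5, 5, 3 and 2 mice were pooled, with yields of 115, 28.7, 1.3 and 1.3 M cells (M, 1000000). The 4 IL-2-KO libraries, labelled as from mice without the cytokine interleukin-2, had yields of 26.7, 42.6, 1.1 and 0.4 M, and pooling of mice is not stated for them. No treatment was named, and age, strain and tissue were shared by both groups. The series' design text gives spleen as a further source and allows heterozygous mice among the controls, whereas the sample labels give lymph nodes and WT only.

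Replication starts at origins marked by the origin recognition complex, where Cdc6 and Cdt1 load the ring-shaped MCM2-7 helicase before S phase. Cdc45 and the GINS complex then turn the loaded ring into the moving helicase, polymerases copy the opened strands around the PCNA clamp, and nucleases and a ligase join the lagging strand. Many of these genes are known targets of E2F transcription factors and are switched on as a cell leaves quiescence. Naive CD8 T cells are mostly quiescent, and they divide when they meet antigen or when homeostatic signals are strong. Interleukin-2 is a growth factor for activated T cells and is needed to sustain regulatory T cells, and its loss in mice leads to autoimmunity.

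All levels below are TMM-scaled counts per 1000000 (CPM), with mean ± SD over n = 4 libraries per group, and changes are differences of log2(CPM + 0.5), IL-2-KO minus WT, with their standard error (SE). This scale slightly understates the change of low genes. The libraries held 11.9 to 18.4 M recovered counts, and the members rested on 45 to 4857 reads per library. The targeted gene Il2 was listed at 5.72, 5.65, 6.25 and 5.91 CPM in WT and at 5.12, 7.32, 8.42 and 4.25 in IL-2-KO (exact permutation test, two-sided, p = 0.714). Since the table does not separate exons, this leaves the genotype unchecked. The CD8 chain gene Cd8a stood at 1839.8 ± 131 CPM in WT and 1660.4 ± 187 in IL-2-KO, and 8 CD8 T cell markers summed to 6939 to 7715 and 5981 to 6948 CPM, with 1 of them, Thy1, passing as lower. WT replicate 2 and IL-2-KO replicate 3 held more transcripts of myeloid and CD4 T cell markers than the rest of their groups. The 4 listed of 11 myeloid markers summed to 69.1 CPM in WT replicate 2 against 8.44 to 11.2 in the other WT libraries, and to 342 in IL-2-KO replicate 3 against 13.8 to 19.1. The 5 CD4 and regulatory T cell markers showed the same 2 libraries as highest, at 74.8 and 94.0 CPM, with the others between 14.3 and 23.8. Erythroid markers (4 of 9 listed) summed to 14.7 to 94.9 CPM in WT and 9.76 to 43.5 in IL-2-KO, with replicate 4 the highest library of each group. No tested gene of the 10 lists for other cell types passed in either direction. The gamma-delta T cell list had no tested gene, and the natural killer cell list had 1. Transcripts concentrated in 1 library per group widen the spread within groups, so this test cannot show that other cell types were absent or equal. Lyz2, a myeloid marker, read 39.97 CPM in WT replicate 2, 295.8 in IL-2-KO replicate 3 and at most 2.85 elsewhere (limma adjusted p = 0.503, Benjamini-Hochberg). The B cell genes Ms4a1 and Pax5 and the thymocyte genes Rag1, Rag2, Ptcra and Dntt were not among the genes listed.

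Replication genes were higher in IL-2-KO than in WT across most of the machinery. Of the 50 genes 36 passed as higher and none as lower (limma, Benjamini-Hochberg adjusted p under 0.05), where 11.1% of the 11530 genes tested passed as higher and 8.03% as lower. The median log2 change over the 50 was 0.59, beside -0.0097 over all genes tested. Changes ran from -0.22 for Orc4 to 1.62 for Dna2. All 4 IL-2-KO values lay above all 4 WT values for 42 of the 50, where 12.9% of all genes tested were apart in this direction, and none lay apart as lower (11.2% of all genes). At least 2-fold rises that passed were found for 10 of the 50, against 4.14% of all genes: Dna2, Mcm10, Clspn, Chaf1a, Cdc45, Lig1, Gins2, Uhrf1, Cdc6 and Mcm5. The 14 that did not pass were Orc2, Orc3, Orc4, Orc5, Orc6, Cdt1, Gins4, Pole2, Rfc1, Rpa1, Rpa3, Rnaseh2a, Timeless and Dnmt1, and 6 of these (Orc2, Cdt1, Gins4, Pole2, Rfc1 and Rnaseh2a) nevertheless had groups that did not overlap. In bulk RNA a larger share of dividing cells and more transcript in each dividing cell cannot be told apart. With both of the libraries rich in myeloid transcripts left out, 31 passed as higher, beside 10.7% of all genes: Gins1, Gins3, Pold1, Pold2, Pcna and Chaf1b lost their call and Rpa1 gained one. The part of other cell types in the result was otherwise not tested. After a correction for GC content and length 36 members also passed as higher, of which Rfc1 and Timeless were gained while Pold2 and Pcna were lost, and Orc3 passed as lower. That correction turned the split of all genes from 1285 higher and 926 lower to 1178 and 1781.

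**Figure D1:**
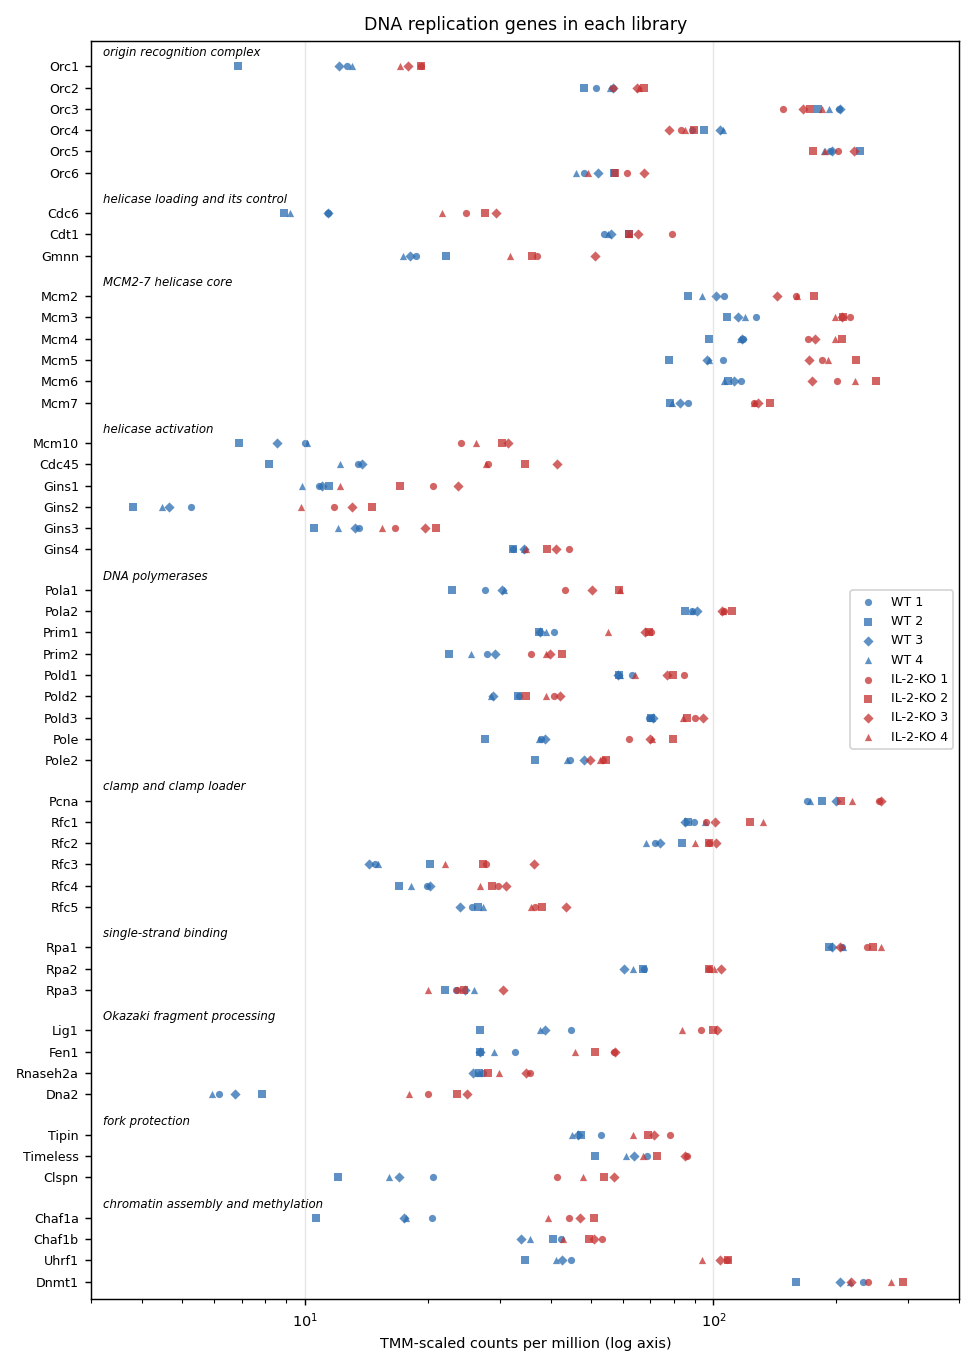
TMM-scaled CPM (log axis) of the 50 replication genes, grouped by role, in WT (blue, n = 4) and IL-2-KO (red, n = 4), with the marker shape giving the replicate. Red points lie to the right of all blue points for 42 genes. The groups overlap for the other 8: Orc3, Orc4, Orc5, Orc6, Rpa1, Rpa3, Timeless and Dnmt1. Red points of Orc3, Orc4 and Orc5 lie among or left of the blue ones.

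Since many replication genes are known E2F targets, the E2F element was looked for in RefSeq promoter sequences (GRCm38.p6, 250 bases before to 50 after the start). Its spelled forms were TTTCCCGC, TTTCGCGC, TTTGCCGC and TTTGGCGC on either strand, which can overlap one another. A RefSeq promoter was found for 41 members, and 18 of these (43.9%) held at least 1 form. The share was 4.92% of 9199 tested genes and 2.60% of all 27025 genes there. The members were chosen as replication genes, so their share describes the chosen list and not its change in IL-2-KO. Searched in the same way on either strand, a CCAAT box was present in 26 of the 41 (63.4%, against 43.5% of tested genes), GGGCGG, the Sp1 box, in 30 (73.2% against 68.3%), and TTTGAA or TTTAAA, the CHR element of late cell cycle genes, in 9 (against 22.4% of tested genes). The E2F letters occurred in 14 of the 28 members with a promoter that passed and in 4 of the 13 that did not, namely Orc3, Cdt1, Pole2 and Dnmt1. Members with the E2F letters had a median log2 change of 0.76 and those without 0.36. The same medians were 0.69 and 0.34 for the CCAAT box, 0.72 and 0.47 for the CHR element, and 0.35 and 0.79 for the Sp1 box. The stretches below are shown because they carry the element in members that passed and lie upstream of the start used for the promoter and outside GENCODE exons. Those of Cdc6, Uhrf1 and Pola1 lie within the gene's RefSeq span, which begins farther upstream. Capitals mark the E2F letters, each stretch is written 5′ to 3′ on the strand of its gene, and a match of letters is not a measured site.
Mcm5 (GRCm38 chr8:75109340-75109399, plus strand): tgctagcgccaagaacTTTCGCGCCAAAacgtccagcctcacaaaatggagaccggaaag
Mcm6 (GRCm38 chr1:128359772-128359831, minus strand): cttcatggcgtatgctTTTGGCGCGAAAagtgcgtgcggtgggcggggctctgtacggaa
Cdc6 (GRCm38 chr11:98907997-98908056, plus strand): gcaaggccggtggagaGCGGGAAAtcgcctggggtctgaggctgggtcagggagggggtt
Uhrf1 (GRCm38 chr17:56304112-56304171, plus strand): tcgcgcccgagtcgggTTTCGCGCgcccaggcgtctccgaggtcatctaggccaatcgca
Pola1 (GRCm38 chrX:93632250-93632309, minus strand): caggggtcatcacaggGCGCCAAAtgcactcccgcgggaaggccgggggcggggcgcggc
In Mcm5 and Mcm6 forms on both strands overlap, giving 1 run of 12 capitals, and in Cdc6 and Pola1 the form lies on the opposite strand.

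In the origin recognition complex few genes passed as higher. Only Orc1, an ATPase subunit whose level follows the cell cycle in mammalian cells, passed among its 6 subunits. Orc1 (chromosome 4, 108575705 to 108616030, GRCm38) stood at 12.6, 6.85, 12.1 and 13.03 CPM in WT replicates 1 to 4 and at 19.2, 19.2, 17.9 and 17.1 in IL-2-KO replicates 1 to 4. Its groups did not overlap, and WT replicate 2 was the low library. Orc1 rose 1.66-fold (log2 change 0.73, SE 0.19; limma adjusted p = 0.0222, Benjamini-Hochberg). The call was lost without IL-2-KO replicate 2 (adjusted p = 0.0548).

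The other subunits complete the complex that marks origins. Orc2 stood at 51.4, 48.3, 56.7 and 55.8 CPM in WT and 56.7, 67.7, 65.1 and 65.9 in IL-2-KO (log2 change 0.26; limma adjusted p = 0.0558, Benjamini-Hochberg). Orc6 gave 48.1, 57.0, 52.2 and 46.1 against 61.6, 57.3, 67.7 and 49.3 (log2 change 0.21; limma adjusted p = 0.216). The groups of Orc2 nearly touched and those of Orc6 overlapped. Orc3 and Orc4 had negative estimates. Orc3 read 203, 180.1, 204 and 192 CPM in WT and 148, 172, 166 and 185 in IL-2-KO (log2 change -0.22, 95% interval -0.40 to -0.036; limma adjusted p = 0.0902), and Orc4 read 88.8, 94.8, 104 and 105 and 83.2, 89.8, 77.8 and 85.3 (log2 change -0.22, 95% interval -0.40 to -0.046; limma adjusted p = 0.077). The IL-2-KO values lay mostly below the WT values, with 1 IL-2-KO library reaching into the WT range in each. Orc5 did not pass, at 192, 228, 195 and 186 and 201, 175, 221 and 188 CPM (log2 change -0.032, 95% interval -0.24 to 0.17; limma adjusted p = 0.844). Orc2 passed as higher without IL-2-KO replicate 1, and Orc3 as lower without IL-2-KO replicate 4 (limma adjusted p = 0.0274 and 0.0482). With array weights Orc2 passed as higher and Orc3 and Orc4 as lower, and Orc3 also passed as lower after a correction for GC content and transcript length.

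Of the 3 genes that load the helicase or restrain its loading, Cdc6 and geminin rose and Cdt1 did not pass. Cdc6, the ATPase that works with the origin recognition complex to place the MCM ring, stood at 11.4, 8.89, 11.4 and 9.19 CPM in WT and 24.7, 27.5, 29.3 and 21.6 in IL-2-KO. No IL-2-KO library came near the WT range. Its rise was 2.45-fold (log2 change 1.29, SE 0.13; limma adjusted p = 0.000187, Benjamini-Hochberg). Gmnn encodes geminin, which binds Cdt1 and blocks repeated loading within a cycle. It was listed at 18.7, 22.1, 18.0 and 17.4 CPM in WT and 37.0, 35.9, 51.1 and 31.8 in IL-2-KO, with IL-2-KO replicate 3 the highest library. The rise was 2.00-fold (SE 0.15 on the log2 scale; limma adjusted p = 0.00118). Cdt1, the factor that brings MCM2-7 to origins, gave 53.9, 62.1, 56.0 and 55.2 CPM in WT and 79.0, 62.3, 65.4 and 62.3 in IL-2-KO. The lowest IL-2-KO value was only just above WT replicate 2, and the change was 0.24 (95% interval 0.028 to 0.44; limma adjusted p = 0.106).

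All 6 subunits of the MCM2-7 ring rose, within a narrow span. Their folds were 1.58 (Mcm7), 1.64 (Mcm2), 1.67 (Mcm4), 1.77 (Mcm3), 1.89 (Mcm6) and 2.04 (Mcm5), and the groups of each stayed apart. Mcm3 read 127, 108, 115 and 119.7 CPM in WT and 216, 208, 207 and 198 in IL-2-KO (limma adjusted p = 8.79e-05, Benjamini-Hochberg). Mcm2, which shared the largest adjusted p with Mcm4, read 106, 86.6, 101 and 93.8 and 159, 176, 143 and 160.1 (limma adjusted p = 0.000438). WT replicate 2 was the lowest WT library for 5 of the 6, and Mcm6 was lowest in WT replicate 4. The SE of the 6 changes lay between 0.066 and 0.11 on the log2 scale. The subunits were measured in the same libraries, and differences between their changes were not tested.

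Larger and more varied changes were found among the genes that turn the loaded ring into an active helicase. Mcm10, which is needed for the ring to open DNA, stood at 9.9996, 6.91, 8.54 and 10.1 CPM in WT and 24.1, 30.4, 31.5 and 26.2 in IL-2-KO. It rose 3.05-fold (log2 change 1.61, SE 0.15; limma adjusted p = 0.000102, Benjamini-Hochberg), an estimate within its error of those of Dna2 and Clspn. Cdc45, which joins MCM2-7 and GINS in the active helicase, rose 2.71-fold, from 11.9 ± 2.58 to 32.9 ± 6.44 CPM (limma adjusted p = 0.000576). The 4 GINS subunits form 1 stable complex, and the estimates for their transcripts ranged widely. Gins2 rose 2.53-fold (4.54 ± 0.608 to 12.3 ± 2.03 CPM), Gins1 1.63-fold (10.8 ± 0.689 to 18.4 ± 4.93) and Gins3 1.45-fold (12.4 ± 1.38 to 18.1 ± 2.57), with limma adjusted p of 0.000364, 0.0241 and 0.0207. Gins4 did not pass, at 32.3, 32.3, 34.3 and 34.3 CPM in WT and 44.4, 39.1, 41.1 and 34.8 in IL-2-KO (log2 change 0.25, 95% interval 0.048 to 0.45; limma adjusted p = 0.0815). The interval of Gins2, 0.99 to 1.69, lay above that of Gins4. Gins4 passed without IL-2-KO replicate 4. The Gins1 call was lost without WT replicate 1, 3 or 4 or IL-2-KO replicate 1 or 3, and that of Gins3 when either WT replicate 4 or IL-2-KO replicate 2 was left out.

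**Figure D2:**
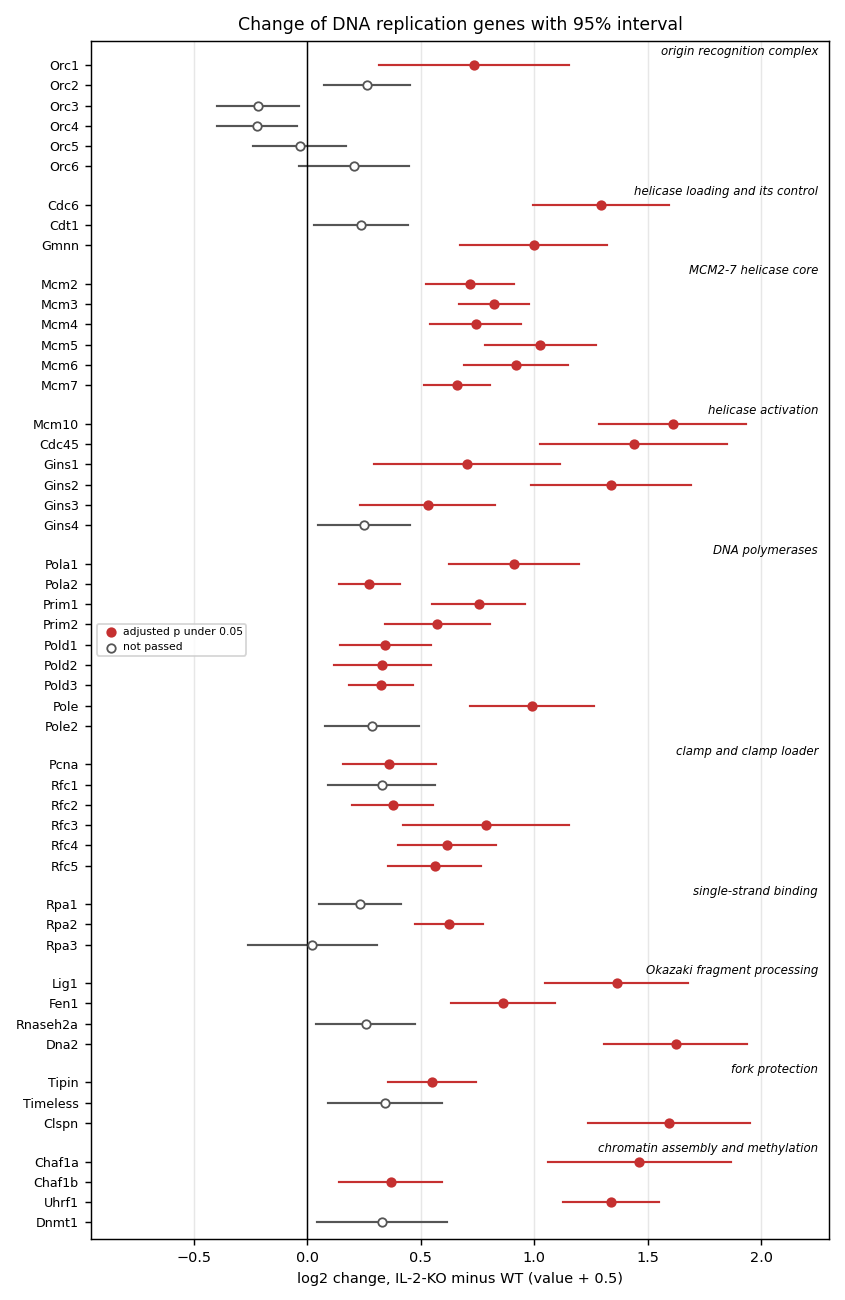
Log2 change of each replication gene, IL-2-KO minus WT on the log2(CPM + 0.5) scale, with its 95% interval from limma, where filled red points passed at an adjusted p under 0.05. The MCM2-7 subunits sit together between 0.66 and 1.03, and the origin recognition subunits other than Orc1 between -0.22 and 0.26. Dna2, Mcm10 and Clspn lie farthest right.

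Polymerase genes passed as higher in 8 of 9 cases, with the catalytic subunits of polymerases alpha and epsilon ahead of the rest. Prim1, the catalytic subunit of primase, stood at 40.6, 37.4, 37.7 and 38.8 CPM in WT and 70.5, 69.7, 68.2 and 55.03 in IL-2-KO, with IL-2-KO replicate 4 lowest in its group. Its rise was 1.69-fold (SE 0.093 on the log2 scale; limma adjusted p = 0.000448, Benjamini-Hochberg). Pole, which copies the leading strand, rose 1.99-fold (35.4 ± 5.26 to 70.5 ± 7.31 CPM; limma adjusted p = 0.000473), and Pola1, which extends the primer, 1.88-fold (27.9 ± 3.598 to 52.9 ± 7.54; limma adjusted p = 0.000998). The accessory primase subunit gene Prim2 rose 1.49-fold. Genes of polymerase delta, the lagging strand enzyme, rose by less: Pold1 1.27-fold, Pold2 1.26-fold and Pold3 1.25-fold, near the 1.21-fold of Pola2. Pole2, the second subunit of polymerase epsilon, gave 44.5, 36.7, 48.2 and 43.7 CPM in WT and 53.7, 54.7, 49.8 and 52.6 in IL-2-KO and just missed the threshold (log2 change 0.29, 95% interval 0.080 to 0.49; limma adjusted p = 0.0558). The intervals of Pole (0.72 to 1.26) and Pole2 did not meet. The Pold1 call was lost without WT replicate 3 or 4 or IL-2-KO replicate 1 or 2, and that of Pold2 without WT replicate 1, 3 or 4 or IL-2-KO replicate 1, 3 or 4 or after the GC and length correction.

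PCNA, the ring that tethers polymerases to DNA, had the highest level per length of all 50 and a modest rise. Pcna stood at 169, 185, 199.5 and 173 CPM in WT and 254, 206, 258 and 218 in IL-2-KO, with the lowest IL-2-KO library close to the highest WT library. The rise was 1.28-fold (log2 change 0.36, SE 0.092; limma adjusted p = 0.0218, Benjamini-Hochberg). Its call was lost without WT replicate 1 or 4 or IL-2-KO replicate 1 or 3, at adjusted p between 0.0506 and 0.0724, and after the GC and length correction (log2 change 0.24; limma adjusted p = 0.052). Of the 5 clamp loader genes, the small subunits Rfc3, Rfc4, Rfc5 and Rfc2 rose 1.73-, 1.53-, 1.48- and 1.30-fold. Rfc4 read 19.9, 16.9, 20.2 and 18.2 CPM in WT and 29.7, 28.7, 31.1 and 26.9 in IL-2-KO (limma adjusted p = 0.00183). Rfc1, the large subunit, read 89.5, 86.6, 85.0 and 95.6 and 96.0, 123, 101 and 132 and did not pass (log2 change 0.33, 95% interval 0.094 to 0.56; limma adjusted p = 0.0545). Its IL-2-KO values split into 2 near 100 CPM (replicates 1 and 3) and 2 above 120 (replicates 2 and 4), and it passed without IL-2-KO replicate 1 or 3.

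Replication protein A coats single-stranded DNA as a trimer, and of its 3 genes only Rpa2 passed as higher. Rpa2, the middle subunit, stood at 67.7, 67.3, 60.3 and 63.7 CPM in WT and 97.6, 97.3, 104 and 100.4 in IL-2-KO, a 1.54-fold rise (SE 0.067 on the log2 scale; limma adjusted p = 0.000231, Benjamini-Hochberg). Rpa1, the large subunit, gave 206, 191, 195 and 208 and 237, 245, 204 and 257 CPM (log2 change 0.23, 95% interval 0.053 to 0.41; limma adjusted p = 0.0711), and 1 IL-2-KO library, replicate 3, lay in the WT range. Without that library it passed (adjusted p = 0.0168). Rpa3, the small subunit, gave 23.4, 22.04, 24.7 and 25.9 and 23.6, 24.4, 30.5 and 19.96 CPM, with 1 IL-2-KO library below and 1 above all WT values (log2 change 0.023, 95% interval -0.26 to 0.31; limma adjusted p = 0.923). The intervals of Rpa2 (0.47 to 0.77) and Rpa3 did not meet.

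Enzymes that mature Okazaki fragments showed some of the largest rises. Dna2, a nuclease and helicase that trims long flaps, had the largest estimate of the 50 as reported. Clspn and Mcm10 both exceeded it with a pseudocount of 2 and after quantile normalization. The same held without WT replicate 1 or 4 or IL-2-KO replicate 1. Dna2 stood at 6.17, 7.84, 6.74 and 5.91 CPM in WT and 20.03, 23.6, 24.9 and 18.0 in IL-2-KO, and no library of either group came near the other. The rise was 3.08-fold (log2 change 1.62, SE 0.14; limma adjusted p = 9.32e-05, Benjamini-Hochberg). Lig1, the ligase that seals the fragments, rose 2.57-fold (37.0 ± 7.45 to 94.7 ± 8.20 CPM; limma adjusted p = 0.000187), and the flap endonuclease gene Fen1 1.82-fold (28.9 ± 2.75 to 52.9 ± 5.45; limma adjusted p = 0.000382). Rnaseh2a, the catalytic subunit of RNase H2, which removes ribonucleotides from DNA, gave 27.3, 26.6, 25.7 and 26.7 CPM in WT and 35.5, 28.1, 34.7 and 29.8 in IL-2-KO. It did not pass (log2 change 0.26, 95% interval 0.041 to 0.48; limma adjusted p = 0.0935).

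At the fork, claspin moved far more than the Timeless and Tipin pair. Clspn, the mediator that passes the replication stress signal to the kinase Chk1, stood at 20.5, 12.1, 17.0 and 16.1 CPM in WT and 41.4, 53.9, 57.0 and 47.8 in IL-2-KO. It rose 3.02-fold (log2 change 1.59, SE 0.16; limma adjusted p = 0.000155, Benjamini-Hochberg). Tipin, which binds Timeless to steady the fork, rose 1.47-fold (48.0 ± 3.48 to 70.6 ± 6.17 CPM; limma adjusted p = 0.00187). Timeless gave 68.7, 51.2, 64.0 and 61.0 CPM in WT and 86.4, 72.6, 85.1 and 67.3 in IL-2-KO, with 1 IL-2-KO library, replicate 4, below WT replicate 1 (log2 change 0.34, 95% interval 0.092 to 0.59; limma adjusted p = 0.059). Timeless passed without that library. The Clspn interval, 1.24 to 1.95, lay above both that of Tipin (0.36 to 0.74) and that of Timeless.

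Within chromatin assembly and methylation, 1 partner of each pair rose by more than 2-fold and the other by less or without passing. Uhrf1, which reads hemimethylated DNA behind the fork and recruits Dnmt1, stood at 44.8, 34.5, 42.6 and 41.1 CPM in WT and 108, 109, 104 and 93.5 in IL-2-KO. It rose 2.53-fold with a small error (SE 0.094 on the log2 scale; limma adjusted p = 5.41e-05, Benjamini-Hochberg). Dnmt1, the maintenance methyltransferase, gave 233, 159, 204 and 216 and 239, 291, 217 and 272 CPM, and the groups overlapped. Its change was 0.33 (95% interval 0.044 to 0.61; limma adjusted p = 0.102), below the Uhrf1 interval of 1.13 to 1.55. Chaf1a, the large subunit of the histone chaperone CAF-1, rose 2.75-fold (16.6 ± 4.19 to 45.5 ± 4.94 CPM; limma adjusted p = 0.000475). Its partner Chaf1b rose 1.29-fold (38.0 ± 4.00 to 49.2 ± 4.42; limma adjusted p = 0.0306). Leaving out WT replicate 3 or 4 ended the Chaf1b call, as did leaving out IL-2-KO replicate 1, 2 or 3. The intervals of Chaf1a (1.06 to 1.87) and Chaf1b (0.14 to 0.59) did not meet.

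Some members share exon sequence with neighbours, and no source used here gives the strand setting of the counting. Over all GENCODE exons of a gene, 84.2% of Fen1 lay antisense to exons of Tmem258 or Gm10143, 67.3% of Gins2 to Gse1, 52.5% of Chaf1a to Ubxn6 and 29.8% of Orc2 to Nif3l1. The log2 changes of these neighbours were 0.042 for Tmem258, -0.20 for Gse1, -0.13 for Ubxn6 and 0.017 for Nif3l1, beside 0.86 for Fen1, 1.34 for Gins2 and 1.46 for Chaf1a. Smaller shared stretches joined Rfc5 to Wsb2 (10.7% of Rfc5, log2 change of Wsb2 0.50) and Rnaseh2a to Prdx2 and Gm49661 (14.7% of Rnaseh2a, log2 change of Prdx2 0.53). Rfc4 shared 12.65% of its exon bases with Eif4a2, which stood at 901 ± 31.2 CPM in WT and 658 ± 62.5 in IL-2-KO and fell (log2 change -0.46; limma adjusted p = 0.00442). Mcm7 shared 12.59% with Ap4m1, Cops6, Mir25 and Mir93 (log2 changes 0.012 for Ap4m1 and 0.21 for Cops6), and Rfc2 shared 15.1% with Lat2 (log2 change -0.048). Reads were split in fractions for most members: 7 of the 50 had whole read numbers (within 0.02 of a read) in all 8 libraries, and 6 in none. Chromosomes 5 and 8 held 7 members each, those on chromosome 5 including 4 of the 5 Rfc genes.

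Levels were compared between genes per kb of exon, a scale that divides each CPM mean by the length of all annotated exons. Pcna was highest in both groups, at 75.6 CPM per kb in WT and 97.5 in IL-2-KO. Rpa1, Orc5, Orc3, Mcm4 and Mcm3 followed in WT at 35.9 to 31.2 CPM per kb, and in IL-2-KO the next 4 after Pcna were Mcm3, Mcm4, Mcm5 and Mcm6. Gins2, Dna2 and Mcm10 were lowest in WT, at 1.11, 1.13 and 1.16 CPM per kb, and stayed lowest in IL-2-KO, at 3.00, 3.68 and 3.64. Among MCM2-7 subunits Mcm2 was lowest in both groups, and its annotated exons were the longest, at 6.956 kb. In CPM its mean lay above that of Mcm7 in both groups, so this rank depends on the exon length used. The MCM2-7 subunits kept a similar spread, with the highest at 2.245 times the lowest in WT and at 2.41 times in IL-2-KO. In every other group of members except single-strand binding the distance between highest and lowest shrank, for GINS, Cdc45 and Mcm10 from 22.3 to 9.83 times and for the origin recognition complex from 10.1 to 6.03 times. Across the 50 members a lower WT level per kb went with a larger log2 change (Spearman rho -0.596, a description over genes that share libraries, and the change itself contains the WT level). The 25 members with the higher WT level per kb had a median log2 change of 0.33, with 13 passing, and the 25 with the lower level had 0.79, with 23 passing.

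**Figure D3:**
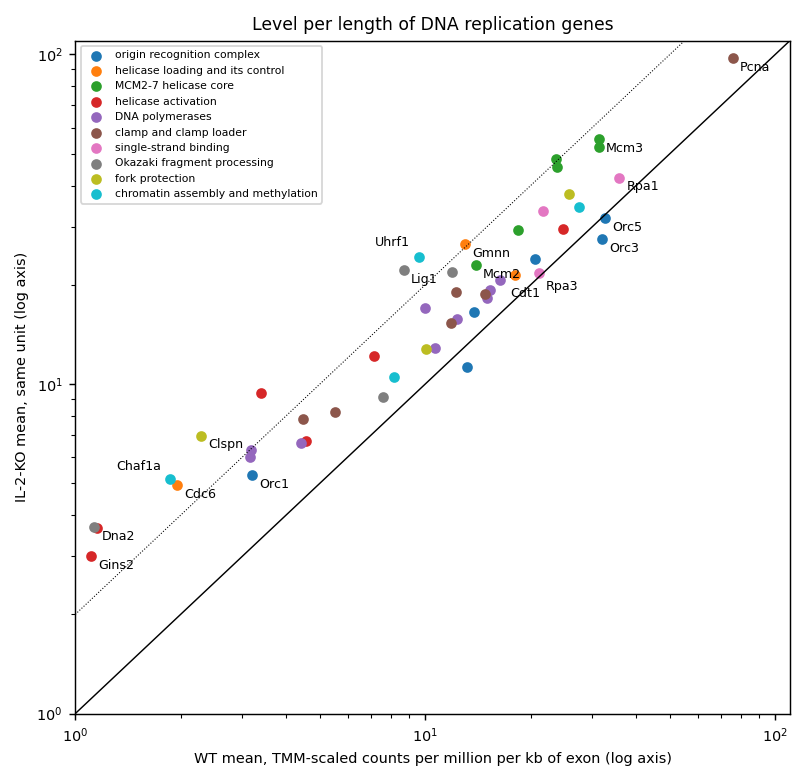
Mean level of each replication gene per kb of exon in WT (x, log axis) and IL-2-KO (y, log axis), coloured by role, with the solid line at equal levels and the dotted line at a 2-fold rise. Gins2 at 1.11 and Dna2 at 1.13 CPM per kb in WT lie above the dotted line, Orc1 and Pola1 at 3.21 and 3.17 lie below it, and Orc3, Orc4 and Orc5 lie under the solid line.

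Ratios of levels per kb between partner genes, for pairs chosen after their values were seen and given without a test, moved in each case. Gmnn over Cdt1 was 0.744, 0.762, 0.690 and 0.674 in WT and 1.00, 1.24, 1.68 and 1.10 in IL-2-KO. Only per kb did geminin lie below its target in every WT library and at or above it in every IL-2-KO library. In CPM Gmnn lay below Cdt1 in every library of both groups. The crossing thus depends on the exon lengths used, 1.465 kb for Gmnn and 3.14 kb for Cdt1. Uhrf1 over Dnmt1 was 0.333, 0.375, 0.361 and 0.329 in WT and 0.782, 0.648, 0.827 and 0.597 in IL-2-KO. Chaf1a over Chaf1b went from a mean of 0.233 ± 0.0630 to 0.490 ± 0.0426, Cdc45 over Mcm2 from 0.242 ± 0.0369 to 0.414 ± 0.108, and Orc1 over Orc2 from 0.231 ± 0.0515 to 0.321 ± 0.0383. The 4 values of each group were apart for all 5 ratios.

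**Figure D4:**
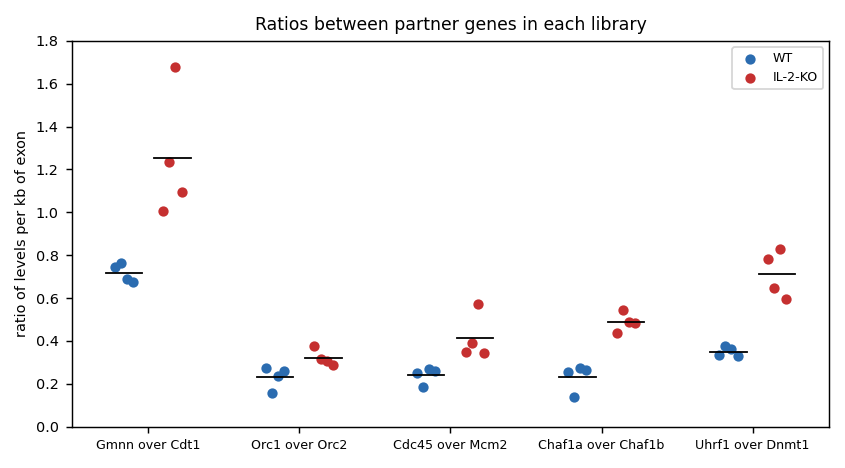
Ratio of levels per kb of exon for 5 pairs of partner genes in each WT (blue) and IL-2-KO (red) library, with lines at group means. Every red point lies above every blue point of its pair, and Gmnn over Cdt1 spreads most among IL-2-KO libraries, up to 1.68 in replicate 3.

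The libraries of each group were alike in most members. The median SD over the 50 was 0.13 on the log2 scale in WT and 0.15 in IL-2-KO, beside 0.13 and 0.19 over all genes tested. Relative to the WT mean the median member stood at 0.077, -0.079, 0.038 and 0.0025 in WT replicates 1 to 4, and at 0.60, 0.62, 0.65 and 0.48 in the IL-2-KO replicates (log2). WT replicate 2 was the lowest WT library for 29 of the 50 members, and IL-2-KO replicate 4, from the fewest cells, was the lowest of its group for 27. IL-2-KO replicate 3 was the highest of its group for 20 and replicate 2 for 17.

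Sorted cell number splits both groups evenly, since replicates 1 and 2 had over 10 M cells and replicates 3 and 4 under 10 M. Within the larger preparations the median change of the 50 was 0.62 with 19 passing as higher, where 2.79% of all genes did. Within the smaller ones it was 0.57 with 16 passing, where 3.08% of all genes did. Each value rests on 2 libraries against 2. The log2 change was above 0 in both classes for 46 members, and Orc3, Orc4, Orc5 and Rpa3 were the exceptions. The largest gap between classes was that of Orc1, with a log2 change of 1.01 in the larger and 0.46 in the smaller preparations. An interaction of genotype with cell number class passed for none of the 50 and for 0 of 11530 genes (limma, Benjamini-Hochberg; 0 of 50 and 193 of 11530 at an unadjusted p under 0.05). With 2 libraries per cell of this design, a p that misses the threshold does not show that the classes responded alike.

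Of 50 further genes of the replication pathway, 48 were listed and 19 passed as higher and 1 as lower, a share of 39.6% higher against 11.1% of all genes tested. Their median log2 change was 0.24, under that of the 50 members. Esco2, which acetylates cohesin at forks, rose 3.43-fold, from 7.36, 7.59, 5.93 and 5.79 CPM in WT to 19.0, 25.9, 25.2 and 26.3 in IL-2-KO (limma adjusted p = 7.83e-05, Benjamini-Hochberg). Exo1, an exonuclease, rose 2.97-fold (4.27 ± 1.22 to 13.4 ± 1.86 CPM; limma adjusted p = 0.000622), and Top2a, the topoisomerase of dividing cells, 2.92-fold (115 ± 9.30 to 346 ± 79.6; limma adjusted p = 0.000203). Top2b, a related topoisomerase, was the 1 gene that passed as lower, with a log2 change of -0.45 (limma adjusted p = 0.0291). Top2b stood at 829, 680.1, 862 and 856 CPM in WT and at 526, 654, 504 and 687 in IL-2-KO. Its groups overlapped, with IL-2-KO replicate 4 above WT replicate 2, and the call was lost without WT replicate 1, 3 or 4 or IL-2-KO replicate 1 or 3. Among origin firing genes 5 of 8 passed as higher, among histone chaperones 5 of 9 and among alternative clamp loaders 3 of 5. A single gene passed as higher in each of the remaining groups. These were 6 origin and MCM accessory genes, 5 PCNA partner and Cdt1 turnover genes and 5 cohesion genes. The others were 4 RNase H2 and primer removal genes, 3 small polymerase subunits and 3 topoisomerases. Differences between these groups were not tested.

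**Figure D5:**
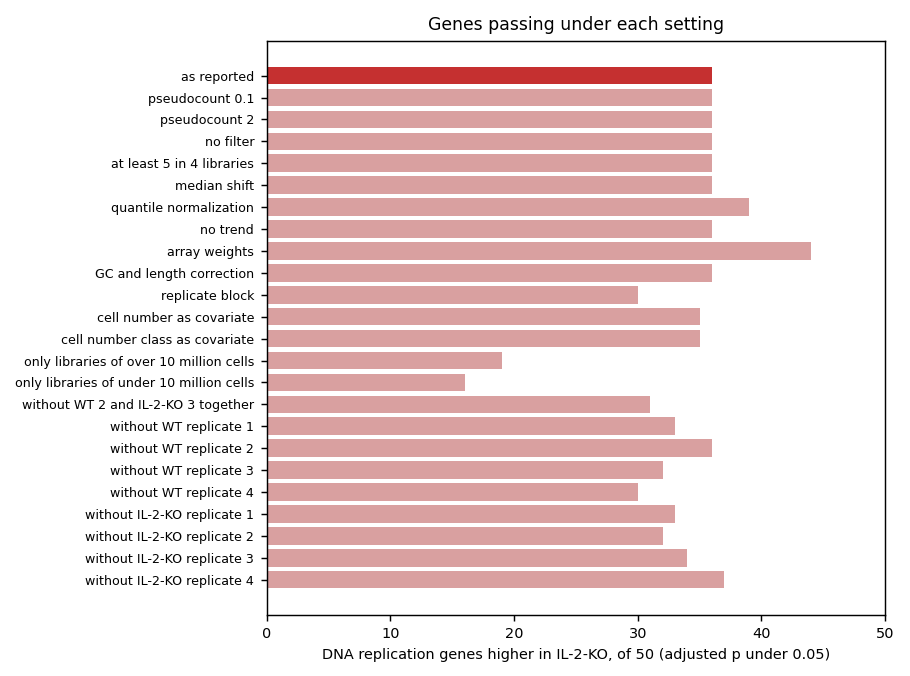
Number of the 50 replication genes that passed as higher in IL-2-KO (bars from 0) as reported and under each of the 23 other settings. The count stays between 30 and 44 except with only the larger (19) or only the smaller (16) cell preparations, which hold 2 libraries per group.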

How the data were processed

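The authors deposited a signal for each gene in each library, which the name of their file gives as TMM-scaled CPM. Per the submitters' processing notes, GRCm38 and mm10 were the builds, and R 3.4.3, limma 3.34.9 and featureCounts were among the tools. Their roles are not stated. The aligner and strand setting are not given in the sources used here. Columns summed to 988292 to 1022953. In each library 54.8% to 65.2% of values under 20 were whole reads (within 0.01 of a read), as fractional counting gives, so no count test was run. The steps gave 11.9 to 18.4 M (1000000) counts per library. No pair of libraries within a group looked like duplicates (chi-square per gene at least 5.03). The unit is a scaled signal, and the limma test planned for CPM was kept.

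Of 11723 Entrez identifiers, 11651 matched RefSeq (GRCm38.p6), and exon lengths came from GENCODE M21. Values were transformed as log2(value + 0.5), and the 11530 genes with at least 1 in at least 4 libraries were tested, IL-2-KO against WT, with limma 3.58.1 in R 4.3.3 (empirical Bayes with trend, Benjamini-Hochberg over all genes, threshold 0.05). All 50 members passed the filter. The members and lists were chosen with earlier results of these data known. By a set rule, values per library were given for the smallest and largest adjusted p of each role, for Mcm2, Cdt1, Gmnn, Cdc6, Orc1, Pcna, Uhrf1 and Dnmt1, and for every member that did not pass. Of the further pathway genes, the 3 largest changes and any that passed as lower were named. Other genes and ratios were named after their values were seen. The labels do not say what the replicate numbers share, and p-values measure the spread between these libraries. The steps were tested on simulated data. The planned protein motif search was not run.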

Additional observations from a re-analysis of the deposited data

Results flagged for a closer look

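In 6 of 100 sets of 4 values (50 genes in 2 groups), 1 library stood apart from the other 3 by more than Dixon's 95% critical value for the gap over the range, where chance gives about 1 in 20. WT replicate 2 was that library in 4 of them. Orc1 was at 6.85 CPM there, against 12.11 to 13.03 in the other WT libraries, Mcm4 at 97.3 against 116 to 118 and Pole at 27.6 against 37.4 to 38.8. Rfc3 was high in the same library, at 20.2 against 14.3 to 15.1. Pold1 was high in WT replicate 1, at 63.2 against 58.3 to 59.1, and Prim1 was low in IL-2-KO replicate 4, at 55.03 against 68.2 to 70.5. Without WT replicate 2 all 36 rises still passed.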

How the results depend on the processing

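Of the 36 rises, 15 passed under all 23 other settings: Cdc6, Mcm3, Mcm4, Mcm5, Mcm6, Mcm7, Mcm10, Cdc45, Pola1, Pole, Lig1, Dna2, Clspn, Chaf1a and Uhrf1. Leaving out 1 library at a time gave 30 to 37 of the 50 members as higher. It gave calls for 12 to 21 of the further pathway genes and 1285 to 2205 of all genes, which here and under the other settings are counted in both directions. Only the preparations of over 10 M (1000000) cells gave 19 members, 6 further genes and 384 of all genes, and only those of under 10 M gave 16, 6 and 441, with 2 libraries per group. Array weights gave 44 members as higher and 2 as lower, 33 further genes and 4359 of all genes. The median member change lay between 0.50 and 0.62 under every setting. The causes of these shifts were not tested. Correlations of same-numbered deviations were 0.0842, -0.53, -0.402 and 0.394. No WT library correlated best with its own number, and of the IL-2-KO libraries only replicates 1 and 4 did. The highest correlation, 0.655, joined WT replicate 2 and IL-2-KO replicate 3, both rich in myeloid transcripts. These values therefore do not settle whether the replicate numbers pair the libraries. With the replicate block 30 members, 14 further genes and 1397 of all genes passed. Over all pairs of a named gene and a setting, 27 lost a call, 24 gained one and 685 kept their side of the threshold, with no reversal.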
